A study of Mus musculus with 40 samples.

Results

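The mitochondrial ribosomal protein genes are the nuclear genes named Mrpl or Mrps, for the proteins of the large and the small subunit of the mitochondrial ribosome. They were taken from the deposited expression table by symbol (Mrpl or Mrps, then a number and at most 1 letter, without the pseudogenes marked -ps), and no measured value was used. The rule found 78 of the 55414 genes in the table, 49 named Mrpl and 29 named Mrps, and 6 pseudogene rows were left out. The names follow history and not always position, since the products of Mrps18a and Mrps30 are known from structures to lie in the large subunit. The list goes by name alone, and whether every product is part of the ribosome was not checked.

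The mitochondrial ribosome makes the few proteins that the mitochondrial genome encodes, all of them core parts of the respiratory chain and the ATP synthase. Its RNAs come from the mitochondrial genome, while its proteins are made in the cytosol and imported, so its assembly needs nuclear and mitochondrial transcripts together. Guf1 encodes a mitochondrial GTPase related to bacterial elongation factor LepA, which acts on the mitochondrial ribosome during elongation and is counted here among the translation factors, not among the ribosomal proteins. Collecting duct principal cells, which reabsorb salt and water, depend on mitochondrial ATP for sodium pumping.

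RNA sequencing was done on mpkCCD, a mouse cell line that models the collecting duct of the kidney, in which genes of the CREB family of transcription factors (ATF1, CREB1 and CREM) had been knocked out. The table holds 22 libraries: 11 of unmodified control clones (genotype WT), 5 labelled ATF1-KO, 3 labelled ATF1/CREB1-KO (called double-KO here) and 3 labelled ATF1/CREB1/CREM-KO (called triple-KO). All were grown on permeable supports, in medium with dexamethasone, selenite and transferrin, and received 0.1 nM dDAVP, an analogue of vasopressin, for 72 hours, so no library is without the hormone. Whether replicates of 1 group are separate clones is not said in the labels, so p-values measure only the spread between these libraries, which may be technical. The 18 rescue samples were not analysed here.

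Library numbers run in 3 consecutive blocks, called sets: control clones 1 to 5 with ATF1-KO, control clones 6 to 8 with double-KO, and control clones 9 to 11 with triple-KO. The labels do not call them batches. Each knockout label was compared with the control clones of its own set. Values are TPM, a relative abundance per transcript length, which keep no record of depth, so read numbers are unknown. Each library listed 17296 to 20703 genes above 0. The targeted transcripts only partly followed the labels, so groups are named by label throughout: relative to own-set control clones, Atf1 was at 63.0%, 77.8% and 80.8% in the ATF1-KO, double-KO and triple-KO libraries, Creb1 at 127.5%, 61.0% and 49.6%, and Crem at 133.1%, 252.5% and 134.5%. Aqp2 (379 to 2279 TPM), Avpr2 and Krt18 were high in the control clones, as in principal cells, whereas the principal cell genes Elf5 and Aqp4 were at or near 0 (at most 0.53 and 3.47 TPM). The summed principal cell list was 0.832% to 1.14% of TPM in control clones 9 to 11 and 0.677% to 0.847% in the triple-KO libraries. Within it Aqp2 was at 15.1 to 16.05 TPM in triple-KO, against 640.6 to 2279 TPM in control clones 9 to 11. Of the 12 listed genes tested in triple-KO, 6 had positive and 6 negative log2 changes. In set 2 the list was 0.300% to 0.369% in control clones and 0.287% to 0.449% in double-KO. Of 17 markers of intercalated, proximal tubule, stromal, endothelial and immune cells, 14 had a mean below 1 TPM over the control clones.

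Set 2 and several libraries stood apart from the rest. Set 2 had another composition, with cytosolic ribosomal protein genes at 14.2% to 15.1% of TPM in its control clones against 2.61% to 4.03% in the 16 libraries of the other sets. Within set 2, double-KO replicate 3 had 7.05%, against 13.0% and 12.5% in replicates 1 and 2. Whole chromosomes were shifted in several libraries, as the median log2 difference of their genes from own-set control clones. Control clones, set against the others of their set, were among them. Chromosomes 14 and 10 were at -0.31 and -0.29 in control clone 1, and chromosome 3 at -0.27 in control clone 2. Among knockout libraries, chromosome 17 was at 0.38 in ATF1-KO replicate 1. Chromosome 16 was at -0.80 in triple-KO replicate 1, -0.42 in double-KO replicate 1, and -0.35 and -0.33 in ATF1-KO replicates 1 and 2. Chromosome 14 was at -0.57, -0.56 and -0.56 in triple-KO replicates 2 and 3 and double-KO replicate 2, and chromosome 18 at 0.44, 0.44 and 0.36 in the same libraries. Replicate 1 of triple-KO and of double-KO shared low values on chromosome 16 and on chromosome 11 (-0.29 and -0.36). Libraries that share such shifts may be related, within a label and between labels, which was not tested. All p-values here, also those between labels, take the libraries as independent. For some members whose call changed when 1 of these libraries was left out, that value is given beside the result.

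All 78 genes were expressed in every library, between 5.41 and 1901 TPM. In control clones 1 to 5 their means ran from 17.1 TPM for Mrpl23 to 418.8 TPM for Mrpl42, with a median of 102.5 TPM, against 28.3 TPM over all genes of at least 1 TPM. TPM is a scale per length, but levels of short and long genes shifted against each other between sets, as given below. The order of genes by level therefore holds for the libraries named only. The median was 104.1 TPM for genes named Mrpl and 95.3 TPM for those named Mrps. Over all 11 control clones the lowest means were those of Mrpl1, Mrpl19 and Mrps30 (19.3, 22.6 and 23.9 TPM) and the highest those of Mrps21, Mrpl33 and Mrpl52 (702.4, 641.3 and 517.7 TPM), but this order rests in part on set 2. Mrpl52 was at 1231 TPM in control clones 6 to 8, and at 232.0 and 281.0 TPM in those of sets 1 and 3. The spread between control clones 1 to 5 was small, with a median coefficient of variation of 9.23% against 15.7% for all genes. The most even member was Mrpl4 (102.4 TPM ± 1.69, SD, n = 5), a gene that later separates the groups.

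Summed over the 78 genes, knockout and control libraries of a set had nearly the same level. In set 1 the share of all TPM was 1.00% ± 0.0343 (SD, n = 5) for control clones and 1.02% ± 0.0266 (SD, n = 5) for ATF1-KO. Set 2 gave 2.08% ± 0.0116 (SD, n = 3) for control clones and 2.06% ± 0.0567 (SD, n = 3) for double-KO. Set 3 gave 0.987% ± 0.0342 (SD, n = 3) for control clones and 0.985% ± 0.0336 (SD, n = 3) for triple-KO. The ranges of knockout and control libraries overlapped in each set. The difference between sets was larger than any difference between labels, with about 2.07% of TPM over the 6 libraries of set 2 and 1.00% over the 16 others.

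**Figure D1:**
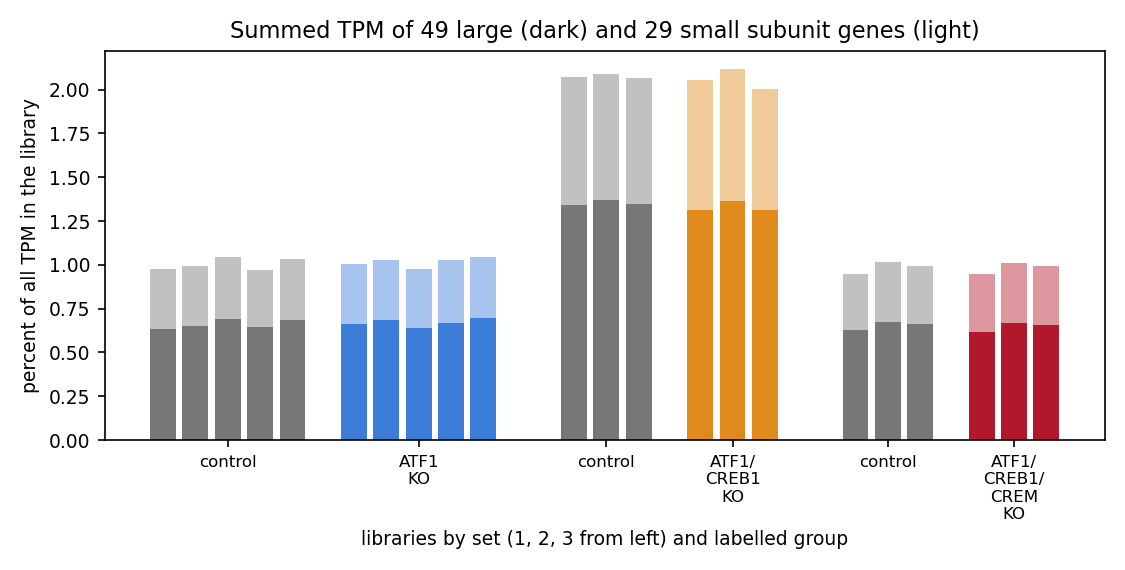
Share of all TPM, in percent from 0, taken by the 49 genes named Mrpl (dark) and the 29 named Mrps (light), 1 bar per library, grey for control clones and coloured for knockout labels. Within each set the bars of knockout and control libraries are level, and the 6 bars of set 2 reach 2.00% to 2.12% against 0.947% to 1.05% elsewhere.

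Gene by gene, changes were tested with limma on log2(TPM + 1), a scale that understates changes of low genes, with Benjamini-Hochberg adjustment over every gene whose mean reached 1 TPM. A gene was called changed at an adjusted p below 0.05. All 78 members passed that filter in each comparison. In ATF1-KO no member was called (0 of 78), beside 0% of 13318 genes. At an unadjusted p below 0.05 there was 1 member, Mrpl19, beside 7.61% of all genes. The median log2 change of the members was 0.04, against 0.00 over all genes, and 50 members were above 0. The largest changes were -0.24 for Mrpl33 and 0.24 for Mrpl19, with adjusted p of 0.713 and 0.654. The 95% interval lay within 1.5-fold in either direction for 78 of 78 members. No member separated the ATF1-KO libraries from the control clones (0 of 78), where 1.3% of all genes did, 0.563% above and 0.736% below.

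In double-KO no member was called against the control clones of set 2 (0 of 78), beside 0.0715% of 12579 genes (0.0318% higher and 0.0397% lower). At an unadjusted p below 0.05 there were 3, Mrpl4 and Mrpl55 lower and Mrps18a higher, beside 9.53% of all genes. The groups did not overlap for 11 members, 3 higher and 8 lower, where 19% of all genes did not overlap, 6.67% higher and 12.4% lower. The median log2 change was 0.10, against -0.03 over all genes. Its sign rests on replicate 3: by library the member median was -0.06, -0.05 and 0.26 in replicates 1 to 3. Without replicate 3 the median change was -0.07, against -0.10 over all genes. Precision was lower here: the interval lay within 1.5-fold for 23 of 78 members. With set as a covariate over all 22 libraries, which shares 1 estimate of the spread, 3 members were called beside 4.58% of genes, and they were Mrpl4, Mrpl55 and Mrps18a again. With every library centred by chromosome, an alternative added after the data were seen, 0 were called beside 0.0802%. Against all 11 control clones, which differ in composition between sets, 11 members were called beside 32.1% of genes.

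In triple-KO 4 of 78 members were called, beside 9.17% of 13258 genes. 1 rose, Mrpl14 (3.91% of all genes were called higher), and 3 fell, Mrpl4, Mrpl55 and Mrps17 (5.26% were called lower). A count of 4 of 78 is below the share of genes called in this comparison. The groups did not overlap for 17 members, 10 higher and 7 lower, against 34.6% of all genes (14.5% higher and 20.2% lower). At an unadjusted p below 0.05 there were 11, beside 27% of genes. Against all 11 control clones 2 members were called, beside 1.03% of genes. The median log2 change was -0.03, against -0.05 over all genes, and 64 of 78 intervals lay within 1.5-fold. With set as a covariate 3 were called, all lower (Mrpl4, Mrpl55 and Mrps17), beside 8.02% of genes. By name, the median was -0.07 for Mrpl and 0.02 for Mrps genes.

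**Figure D2:**
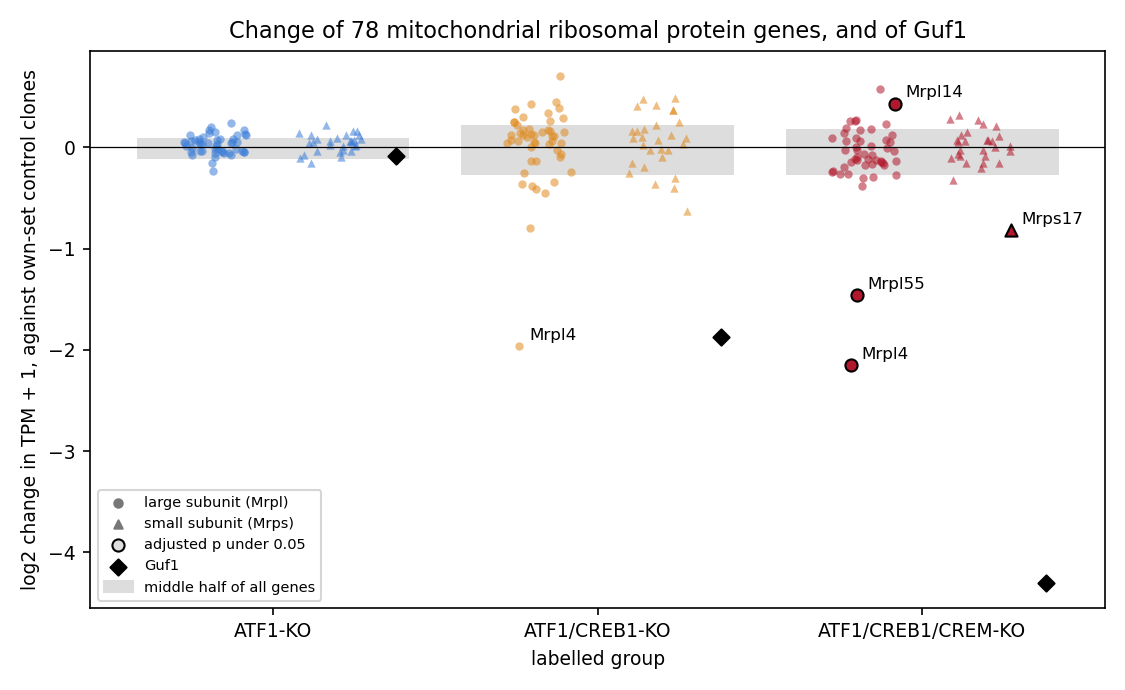
Log2 change in TPM + 1 against own-set control clones for the 78 members (points, large subunit left and small subunit right) under each knockout label, with the middle 50% of all tested genes in grey and Guf1 as a diamond. Most members lie within the grey range, and outlined points pass an adjusted p of 0.05: Mrpl4, Mrpl55 and Mrps17 below and Mrpl14 above 0 in triple-KO.

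Mrpl4 (ENSMUSG00000003299, chromosome 9) encodes a large subunit protein with a bacterial homologue. It was at 80.95, 97.58 and 86.96 TPM in control clones 9 to 11 and at 23.38, 17.34 and 17.16 TPM in triple-KO replicates 1 to 3. It was at 59.96, 74.52 and 63.37 TPM in control clones 6 to 8 and at 9.12, 14.82 and 30.25 TPM in the double-KO replicates. Every double-KO and triple-KO library lay below every control clone, and the ATF1-KO libraries, at 102.18 to 128.59 TPM, overlapped control clones 1 to 5 at 100.76 to 104.73 TPM. Mean levels were 27.4% of own-set control clones in double-KO, 21.8% in triple-KO and 109.9% in ATF1-KO. The log2 change was -2.15 in triple-KO (SE 0.15, limma adjusted p 0.000860) and -1.96 in double-KO (SE 0.40, adjusted p 0.229). Over the fits that left out 1 library, the double-KO change ran from -2.40 to -1.58 and its adjusted p from 0.0200 to 0.823, and it was called only without replicate 3. It was also called with set as a covariate (adjusted p 0.000102) and against all 11 control clones (adjusted p 0.00336), and not in the other 8 alternatives run.

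Mrpl55 (ENSMUSG00000036860, chromosome 11) encodes a large subunit protein found in animal mitochondria and without a bacterial counterpart. It was at 89.18, 108.32 and 96.11 TPM in control clones 9 to 11 and at 22.35, 44.54 and 42.59 TPM in triple-KO. In set 2 it was at 178.49, 188.66 and 197.24 TPM in control clones and at 70.32, 132.08 and 133.56 TPM in double-KO. Both knockout groups lay below their control clones without overlap, and replicate 1 was lowest in each. Mean levels were 37.3% of control in triple-KO, 59.5% in double-KO and 96.3% in ATF1-KO. The log2 change was -1.46 in triple-KO (SE 0.26, limma adjusted p 0.0214) and -0.80 in double-KO (SE 0.29, adjusted p 0.474). The latter was -0.50 (adjusted p 0.369) without double-KO replicate 1 and -0.96 (adjusted p 0.145) without replicate 3. Leaving out control clone 9, 10 or 11 ended the triple-KO call (adjusted p 0.0807 to 0.0853), with log2 changes between -1.38 and -1.52.

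Mrps17 (ENSMUSG00000034211, chromosome 5) encodes a small subunit protein with a bacterial homologue. It was at 188.33, 227.04 and 198.33 TPM in control clones 9 to 11 and at 100.61, 115.1 and 132.09 TPM in triple-KO, without overlap. In double-KO it was at 157.09, 216.82 and 302.35 TPM against 265.73 to 326.14 TPM in control clones 6 to 8, where replicate 3 overlapped the control clones. The log2 change was -0.82 in triple-KO (SE 0.12, limma adjusted p 0.0141) and -0.40 in double-KO (SE 0.27, adjusted p 0.690). The triple-KO call was lost when control clone 9, 10 or 11, or triple-KO replicate 2, was left out (adjusted p 0.0513 to 0.0627).

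Mrpl14 (ENSMUSG00000023939, chromosome 17) encodes a large subunit protein at the face that meets the small subunit. It was at 237.95, 272.66 and 273.33 TPM in control clones 9 to 11 and at 346.36, 354.5 and 356.73 TPM in triple-KO, all above the control clones. The log2 change was 0.43 (SE 0.08, limma adjusted p 0.0263), and with set as a covariate over 22 libraries it was not called (adjusted p 0.160). Each of 5 libraries, when left out, ended this call (adjusted p 0.0637 to 0.0983), all but triple-KO replicate 1. The change was 0.22 (adjusted p 0.113) once each library was centred by chromosome, an alternative added after the data were seen. In double-KO it was 0.14 (SE 0.25, adjusted p 0.866), with replicate 3 below and the other replicates above the control clones.

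Other members named for the size of their change did not pass the threshold. In triple-KO, Mrpl35 had the largest positive change, 0.58 (SE 0.34, limma adjusted p 0.326). It was at 98.41 TPM in replicate 1 and at 247.02 and 226.8 TPM in the others, against 98.52 to 130.93 TPM in control clones 9 to 11. Without replicate 1 its change was 1.00 (adjusted p 0.00329). Mrps25 was at 0.32 (adjusted p 0.0942), with no overlap. In double-KO, Mrps18a was at 0.49 (adjusted p 0.458) with no overlap, at 365.45 to 402.15 TPM against 264.35 to 280.67 TPM, and Mrps16 at -0.63 (adjusted p 0.536). Mrpl1 (0.70) and Mrps30 (0.47) were positive there, and without replicate 3 they were at 0.036 and 0.034. Mrpl1 was at 29.05 TPM in that library and at 6.1 and 6.88 TPM in the others, against 5.41 to 7.67 TPM in control clones 6 to 8.

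**Figure D3:**
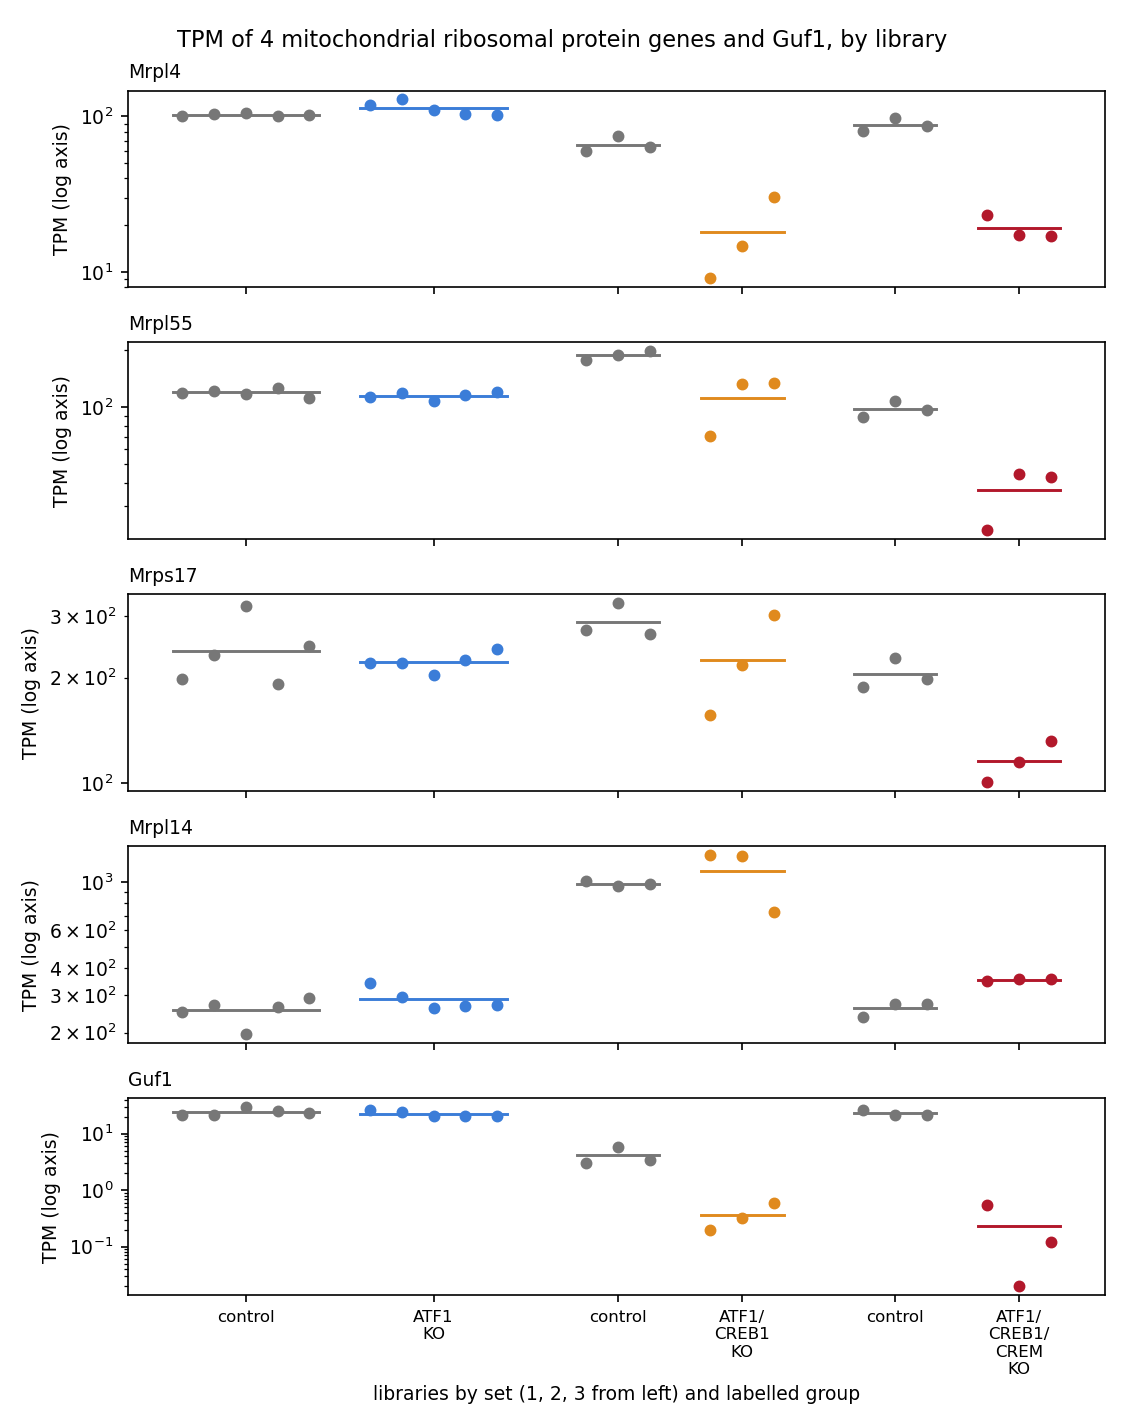
TPM on a log axis for Mrpl4, Mrpl55, Mrps17, Mrpl14 and Guf1, 1 point per library by set and label, with lines at group means. Mrpl4 and Guf1 are low in every double-KO and triple-KO library, Mrpl55 is low in both labels to unequal degrees, and Mrpl14 is about 987 TPM in the control clones of set 2 and about 254 TPM in those of set 1.

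Guf1 (ENSMUSG00000029208, chromosome 5) was at 26.68, 21.09 and 21.06 TPM in control clones 9 to 11 and at 0.55, 0.02 and 0.12 TPM in triple-KO. It was at 3.03, 5.87 and 3.47 TPM in control clones 6 to 8 and at 0.2, 0.32 and 0.59 TPM in double-KO. Its level was thus low in both labels, and it was already lower in the control clones of set 2 than in the other control clones. In ATF1-KO it was at 20.44 to 26.15 TPM against 21.07 to 29.35 TPM. The log2 changes were -4.30 in triple-KO (SE 0.22, limma adjusted p 0.000413), -1.87 in double-KO (SE 0.29, adjusted p 0.113, and 1.85e-05 with set as a covariate) and -0.08 in ATF1-KO (adjusted p 0.871). Mean TPM was 1.00% of control in triple-KO and 8.97% in double-KO.

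The effects were then compared between labels, in 1 fit over 22 libraries with set as a covariate. The triple-KO effect differed from the double-KO effect for 0 of 78 members (1 at an unadjusted p below 0.05, Mrpl55), beside 0.188% of 13295 genes (0.0376% higher and 0.15% lower, and 8.39% at an unadjusted p below 0.05). For Mrpl4 the difference was -0.19 (95% interval -0.91 to 0.54, adjusted p 0.898), for Mrpl55 -0.66 (-1.29 to -0.02, adjusted p 0.584) and for Mrps17 -0.42 (-1.002 to 0.16, adjusted p 0.707), so these intervals still hold sizeable differences. Guf1 differed by -2.43 (SE 0.28, adjusted p 0.000132). Its control mean in set 2 was 2.32 on the log2(TPM + 1) scale, so a fall beyond 2.32 was not possible there. The difference for Guf1 therefore does not show an unequal response. Against the ATF1-KO effect, contrasts added after the data were seen, the double-KO effect differed for 1 member, Mrpl4 (-2.09, adjusted p 0.00145), beside 1.46% of genes. The triple-KO effect differed for 2 members, Mrpl4 (-2.28, adjusted p 0.000154) and Mrpl55 (-1.40, adjusted p 0.00544), beside 3.57% of genes. Mrps17 (-0.74, adjusted p 0.121) and Mrpl14 (0.26, adjusted p 0.685) did not pass in the same contrast.

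The sequences before the called genes are shown because CREB-family proteins bind the cAMP response element (CRE), TGACGTCA, or its core TGACG. RefSeq promoter windows (GRCm38.p6, 250 bases before to 50 after the start) were matched by symbol for 69 of 78 members, and Mrpl4 and Guf1 have none there. Capitals mark the core in Mrpl55 and Mrps17, the full CRE in Mrpl16 and Mrpl49, and an NRF1 motif in Mrpl14. Each stretch is 5′ to 3′ on the gene's strand, from 100 bases before to 20 after the start, except Mrpl49, from 180 to 61 bases before it.
Mrpl55 (chr11:59202386-59202505, plus strand): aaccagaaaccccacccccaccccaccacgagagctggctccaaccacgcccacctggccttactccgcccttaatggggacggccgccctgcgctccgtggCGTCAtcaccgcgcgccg
Mrps17 (chr5:129715397-129715516, plus strand): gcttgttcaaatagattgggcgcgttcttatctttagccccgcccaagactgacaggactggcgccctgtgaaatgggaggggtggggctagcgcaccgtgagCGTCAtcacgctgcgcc
Mrpl16 (chr19:11770315-11770434, plus strand): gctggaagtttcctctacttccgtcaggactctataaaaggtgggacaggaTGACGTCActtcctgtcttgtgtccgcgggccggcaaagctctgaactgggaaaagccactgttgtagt
Mrpl49 (chr19:6057816-6057935, minus strand): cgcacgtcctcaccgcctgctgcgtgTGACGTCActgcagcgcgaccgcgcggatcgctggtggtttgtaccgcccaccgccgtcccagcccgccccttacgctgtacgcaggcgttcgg
Mrpl14 (chr17:45686249-45686368, plus strand): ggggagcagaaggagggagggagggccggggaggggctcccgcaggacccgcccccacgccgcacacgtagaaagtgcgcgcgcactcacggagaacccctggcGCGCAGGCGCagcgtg

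TGACG was found on either strand in 29 of 69 member promoters (42.03%), in 36.2% of the 9531 tested genes with a promoter and in 23.05% of all 27025 promoters. Of these 29 members, 2 were called in triple-KO, Mrpl55 and Mrps17, and the median log2 change of the 29 was 0.01. Over all tested rows with TGACG, 12.4% were called and 8.76% were called lower, against 8.09% and 3.86% without it. In Mrpl55 and Mrps17 TGACG lies on the reverse strand, seen on the gene's strand as CGTCA, which begins at 3 and 4 after the start. In both it is part of the longer match TGATGACGC. Only these 2 of the 69 member promoters hold that longer run, which 0.598% of tested and 0.296% of all promoters hold. The longer run was chosen after these sequences were seen. Among 57 tested rows with it, these 2 included, 15 were called lower in triple-KO (26.3%), against 5.51% of those without it. The full CRE, which contains the core, was found in 2 member promoters, Mrpl16 at -49 and Mrpl49 at -154 (2.90%, against 3.67% of tested and 2.03% of all promoters). Neither gene was called with all libraries: the triple-KO log2 change was -0.13 for Mrpl16 (limma adjusted p 0.483) and 0.17 for Mrpl49 (adjusted p 0.405). Without triple-KO replicate 1 Mrpl49 was called and Mrpl16 was not, beside 25.1% of all genes called. Mrpl49 was at 255.1 and 254.62 TPM in replicates 2 and 3, against 202.28 to 217.27 TPM in control clones 9 to 11. Over all tested rows with a full CRE, 18.8% were called lower in triple-KO, against 5.14% of those without it.

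Member promoters more often held motifs known from housekeeping and mitochondrial genes, given as a description. The NRF1 motif was in 13 of 69 (18.8%, against 12.1% of tested and 5.19% of all promoters), and NRF1 is a known regulator of nuclear genes for mitochondrial proteins. The ETS motif CCGGAAG was in 26 (37.7%, against 21.4% and 9.93%) and the YY1 motif AANATGGCG in 11 (15.9%, against 6.28% and 2.76%). The median triple-KO log2 change was -0.04, -0.06 and 0.06 for the members with each motif, in this order. All motifs were searched on both strands, and a match describes letters in the window, not a bound site.

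The genes beside the called members were examined after their values were seen. Of 5 tested neighbours within 20 kb of Mrpl55, 2 were called in triple-KO. Mrpl55 lies head to head with the noncoding gene 2610507I01Rik, with starts 101 bases apart, which fell too in triple-KO (log2 change -1.58, limma adjusted p 0.0349). Guk1, encoding guanylate kinase, lies within 20 kb of Mrpl55 and fell from 88.1 TPM ± 8.42 to 23.9 TPM ± 11.5 (SD, n = 3 each; log2 change -1.97, adjusted p 0.0277). The others were Arf1, at -0.08 (adjusted p 0.657) and 670.3 TPM in the control clones, 2310033P09Rik, at -0.78 (adjusted p 0.125), and the pseudogene Gm10434, at -0.71 (adjusted p 0.547). Mrpl14 overlaps Tmem63b on the other strand, which rose by 0.56 (adjusted p 0.0222). The library kit does not mark strand, so reads from the overlapping parts of both genes cannot be told apart. Beside Mrps17, Nipsnap2 was at 38.9 TPM ± 2.68 in control clones and 36.1 TPM ± 3.88 in triple-KO (SD, n = 3 each). 18 members share a start region, within 1000 bases, with a protein-coding gene in the other direction, such as Mrpl49 with Fau and Mrps12 with Sars2, and 0 of those 18 partners were called in triple-KO, beside 9.17% of all genes.

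Members also followed their chromosome in single triple-KO libraries. Double-KO was uneven in this. On chromosome 14 its member median was -0.42 in replicate 2, beside a gene median of -0.56, but -1.03 in replicate 3, beside -0.12. On chromosome 17 replicate 3 had a member median of 0.56 beside 0.17. The median gene of chromosome 16 was at -0.80 in triple-KO replicate 1, and at -0.04 and -0.02 in replicates 2 and 3, on the log2 scale against own-set control clones. Mrpl39, Mrpl40 and Mrps6, the 3 members there, were all lower in replicate 1 (-0.90 to -0.34) and between -0.10 and 0.14 in the others. On chromosome 14 the pattern was the other way round: the gene median was -0.03 in replicate 1 and -0.57 and -0.56 in the others. Mrpl52, Mrpl57 and Mrps16 were at 0.01 to 0.22 in replicate 1 and at -0.67 to -0.27 in the others. On chromosome 17 the gene median was higher in each triple-KO library (0.27, 0.19 and 0.18), and 7 of 8 members, among them Mrpl14, Mrpl28 and Mrps18a, had positive changes with a median of 0.17, beside 0.18 for the chromosome. On chromosome 9, which holds Mrpl4, the gene median in triple-KO was -0.06 to 0.00. On chromosome 11, which holds Mrpl55, it was -0.29 in triple-KO replicate 1 and -0.36 in double-KO replicate 1, the libraries in which Mrpl55 was lowest, and -0.04 in triple-KO replicates 2 and 3. The Mrpl55 change in triple-KO was -1.34 after centring by chromosome (limma adjusted p 0.00924). Without triple-KO replicate 1, 15 members were called, 7 higher and 8 lower, beside 25.1% of all genes, and they included Mrpl52, Mrpl57 and Mrps16 of chromosome 14. With every library centred by chromosome, 7 were called beside 11.2% of genes: Mrpl4, Mrpl55 and Mrps17 again, with Mrpl11, Mrpl12, Mrps7 and Mrps25.

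**Figure D4:**
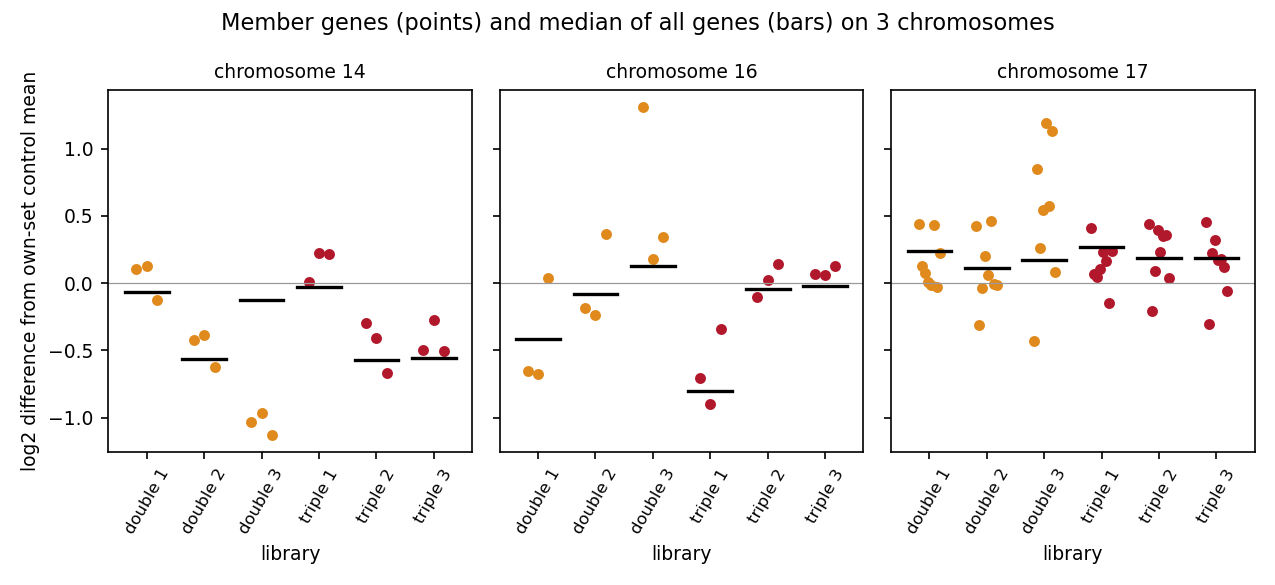
Log2 difference from the own-set control mean for the member genes on chromosomes 14, 16 and 17 (points) in each double-KO and triple-KO library, with the median of all genes on the chromosome as a bar. Triple-KO replicate 1 is low on chromosome 16, replicates 2 and 3 are low on chromosome 14, and most members lie near the bar of their library in triple-KO.

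The control clones of set 2 differed from the others by gene. Of the 78 members, 52 were higher and 26 lower in control clones 6 to 8 than in the other 8, from -2.02 to 2.29 on the log2 scale. Short transcripts were higher: over the members the ratio followed log2 transcript length with Pearson's r of -0.588 and Spearman's rho of -0.617 (n = 78 genes, which share the same libraries and are not replicates). The median was 1.32 for the 26 shortest (418 to 707 bases), 0.60 for the middle 26 and -0.80 for the 26 longest (995 to 3561 bases). Over all genes r was -0.318. In double-KO replicate 3 the members moved against this ratio (r = -0.810 over 78 members), while in replicates 1 and 2 r was 0.106 and 0.192. In that library 56 members were above their control mean, with a median of 0.26, and in replicates 1 and 2 27 and 31 were. The part of this composition in the double-KO results was not tested.

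**Figure D5:**
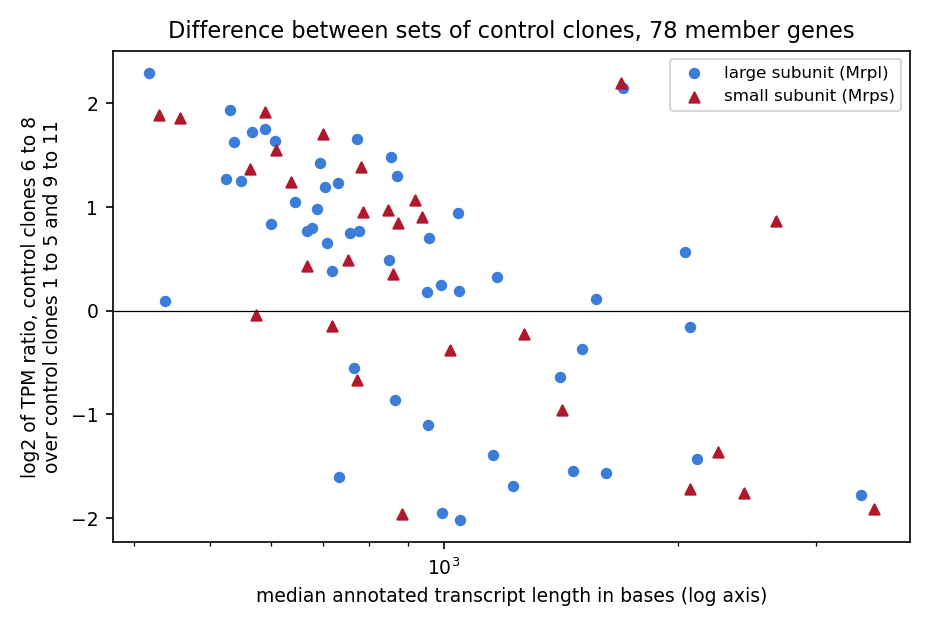
Log2 ratio of mean TPM in control clones 6 to 8 over the other 8 control clones, against median annotated transcript length in bases on a log axis, 1 point per member gene. Short members lie mostly above 0 and long members mostly below, over a range of -2.02 to 2.29.

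Other parts of the mitochondrial translation machinery were read from lists made with earlier results of these data known. None of their members was called in ATF1-KO or double-KO, beside 0% and 0.0715% of all genes, and the counts that follow are for triple-KO, beside 9.17%. Of 5 mitochondrial ribosome proteins not named Mrp (such as Dap3, Ptcd3 and Chchd1), 0 were called (0 at an unadjusted p below 0.05 as well, in limma). Of 15 translation factors 2 rose and 1 fell. Mrrf, the ribosome recycling factor, rose by 0.90 (adjusted p 0.0204), from 25.3 to 29.5 TPM in the control clones to 40.7 to 59.7 TPM. Lrpprc, which stabilizes mitochondrial mRNAs, rose by 0.47 (adjusted p 0.0278), and Guf1 fell. Of 13 regulators of mitochondrial transcription and biogenesis 0 were called (5 at an unadjusted p below 0.05, in limma).

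Among 24 tested factors of mitochondrial ribosome assembly and rRNA modification, 5 fell and 0 rose, with a list median of -0.11 against -0.05 for all genes. Mrm3, a methyltransferase of the large subunit rRNA, was at 23.26, 26.88 and 22.66 TPM in control clones 9 to 11 and at 4.83, 5.24 and 5.53 TPM in triple-KO (log2 change -2.02, limma adjusted p 0.000731). In double-KO it was at 1.51 to 5.85 TPM against 8.07 to 11.61 TPM, without overlap (-1.46, adjusted p 0.328). Gtpbp10, a GTPase of large subunit assembly, fell by 1.41 (adjusted p 0.00305). Fastkd2 fell by 0.46 and Mrm1 by 0.54 (adjusted p 0.0277 and 0.0401). The fifth, Ddx28, named after its values were seen, fell by 0.94 (adjusted p 0.0443). Mrm3 and Mrpl4 thus had low values in the same 6 libraries.

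Of 22 mitochondrial aminoacyl-tRNA synthetases and amidotransferase subunits, 2 fell, Gatc by 1.30 and Wars2 by 0.94 (limma adjusted p 0.00223 and 0.0209), and 0 rose. The list median was -0.23. Of the 13 mRNAs of the mitochondrial genome, which this machinery translates, 6 averaged below 1 TPM over the control clones. Of these 6, 5 were at 0 in every control clone. All 7 tested had positive changes: 4 rose, among them mt-Cytb by 1.14 (adjusted p 0.00255), and 0 fell. As a share of TPM the 13 together were at 1.14% to 1.34% in control clones 9 to 11 and at 1.90% to 2.49% in triple-KO. In set 2 they were at 1.20% to 1.36% in control clones and 2.17% to 3.10% in double-KO, without overlap in either set. Of 78 nuclear subunits of the respiratory chain and ATP synthase, 6 rose and 1 fell. Ndufa1, Ndufv3, Ndufa11 and Ndufa7 rose by 0.47 to 0.66, and Ndufb2 fell by 1.16 (adjusted p 0.000860). Of 14 genes of protein quality control and membrane insertion, 1 was called: Lonp1, the protease of the mitochondrial matrix, rose by 1.09 (adjusted p 0.00109). Chromosome 17 had gene medians of 0.18 to 0.27 in the triple-KO libraries, with 16.04% of its tested genes called. Shifts of whole chromosomes were not examined for the genes of this and the other lists. A change given for a listed gene may therefore in part be that of its chromosome, which was not tested. The cytosolic ribosomal protein genes fell in part, with 18 of 77 called lower, 0 called higher and a median of -0.30, where the mitochondrial ones had a median of -0.03 and 4 of 78 called.

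6 pseudogene rows of the same names were left out. Reads shared with such copies could have been split by the quantification, so values of Mrpl27, Mrpl48, Mrpl23 and Mrps36 are uncertain.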

How the data were processed

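Total RNA was turned into cDNA with the SMARTer kit and PCR, tagmented and sequenced with paired ends, per the labels' protocols. Per the submitters' processing notes STAR and RSEM were used, with roles, versions, genome build and annotation not given in the sources used here. The deposited values are TPM per gene, scaled to the same sum in every library. From them log2(TPM + 1) was computed and every gene whose mean reached 1 TPM in the libraries compared was tested with limma 3.58.1 (trend, R 4.3.3), two-sided, with Benjamini-Hochberg adjusted p over them all, each knockout label against its own-set control clones. Of the gene identifiers, 52133 were found in GENCODE M21 (GRCm38), used for chromosomes, neighbours and transcript length. The tests were tried on simulated data. Genes named were Guf1, called members, the 3 largest changes in each direction, the 3 highest and 3 lowest members and up to 4 called genes per direction of each other list. Members, lists and tests were chosen with earlier results of these data known. Alternatives were other scalings, filters, pseudocounts, control clones and left-out libraries. Same-numbered replicates of control clones 1 to 5 and ATF1-KO are not said to be paired. Depth is unknown, so no counting interval is given.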

Additional observations from a re-analysis of the deposited data

Results flagged for a closer look

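Some single values stood far from the rest of their group of 5, by the gap to the nearest library relative to the range. In control clones 1 to 5, replicate 3 was lowest for Mrpl35 (53.47 TPM, others 86.3 to 94.6) and highest for Mrps14 (272.49 TPM, others 196.5 to 215.6). In ATF1-KO, replicate 1 was lowest for Mrps21 (327.31 TPM, others 444.4 to 460.0). Mrps21 lies on chromosome 3, whose gene median in that library was -0.22 on the log2 scale. The other members there, Mrpl9, Mrpl24, Mrpl47 and Mrps28, were at -0.55 to -0.18 in it. Chance flags about 1 in 20 groups, and 3 of 40 groups examined were flagged. Control clone 3 also had the fewest genes above 0 (17296).

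The response differed between labels by a test of the difference itself for a few genes. Relative to the ATF1-KO effect, the double-KO effect was -1.79 for Guf1 and -2.09 for Mrpl4 on the log2 scale, and the triple-KO effect was -4.22 for Guf1, -2.28 for Mrpl4 and -1.40 for Mrpl55. The triple-KO minus double-KO difference for Guf1 was -2.43, which its low control mean in set 2 (2.32 on the log2(TPM + 1) scale) limits from the double-KO side, so it is not evidence of an unequal response.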

How the results depend on the processing

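Own-set control clones were the main choice, and pooling all 11 control clones moved most results. ATF1-KO then had a member median of -0.15 and log2 changes of 0.57 for Guf1, -0.31 for Mrpl23 and -0.12 for Mrps36. Double-KO had 11 members called (32.1% of genes), a member median of 0.51, -3.54 for Guf1 (adjusted p 0.0143), 0.99 for Mrps16, -0.91 for Mrps30 and -0.59 for Mrpl1. Triple-KO had 2 members called (1.03% of genes), a member median of -0.15 and -0.066 for Mrpl14. In this pooling the composition of set 2 enters the comparison. With set as a covariate, double-KO had 3 members called and Guf1 at -1.87 (adjusted p 1.85e-05). Without a filter on low values triple-KO had 2 members called. Centred by chromosome, it had 7 called and a member median of 0.027, an alternative chosen after seeing the data. Leaving out 1 library gave 0 to 1 members called in double-KO and 1 to 15 in triple-KO, where the high value came without replicate 1, and triple-KO member medians of -0.062 to 0.020. Leaving out 1 library, member medians ran from 0.026 to 0.064 in ATF1-KO and from -0.071 to 0.17 in double-KO. Mrpl4 and Guf1 were called in triple-KO under all 16 alternatives run. The ATF1-KO count stayed at 0 under all 21, and the triple-minus-double count at 0 under all 29. Same-numbered libraries of set 1 did not deviate together (correlations -0.10 to 0.08, 0 of 5 over 0.1, and 1 of 5 best with its own number), and with replicate number as a block 0 members were called and Guf1 was at -0.08 (adjusted p 0.911). The cause of these shifts was not tested. Depth is unknown. In double-KO the 95% half-width exceeded 1.5-fold for 39 of 78 members.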
